A study of Homo sapiens with 12 samples.

Results

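The 49 genes described here encode the machinery of mitosis and of the spindle checkpoint, and were taken by symbol from a list of members, from a table of 57704 genes. All 49 were found in the table and all 49 passed the filter on low counts, among 13820 genes tested. They were sorted by role into mitotic entry and CDK1 control (11 genes), the spindle checkpoint (5), the anaphase ubiquitin ligase and sister separation (6), the chromosomal passenger complex (4), centromere and kinetochore (9), spindle assembly and poles (8), cytokinesis (4) and the mitotic chromosome (2).

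Cells enter mitosis when CDK1 bound to a B-type cyclin is activated by CDC25 phosphatases, and Polo-like and Aurora kinases then drive centrosome maturation, spindle assembly and chromosome alignment. Kinetochores that lack spindle microtubules hold the checkpoint on, and once all are attached, the anaphase-promoting complex with CDC20 marks securin and cyclin B for destruction, separase opens the cohesin rings and the sister chromatids part. Many of these genes are transcribed mainly from late S phase to mitosis, when complexes built on MYBL2 and FOXM1 replace the repressive DREAM complex at their promoters, often at a short element called the cell cycle homology region. In growing cultures their messages therefore follow the share of cells late in the cycle.

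The libraries are 3′ tag counts of polyadenylated RNA (QuantSeq, which reads near the 3′ end of each message) from HEK293, a human embryonic kidney line, and every culture stably carried the intron-DARP-EGFP reporter, which combines an endogenous intronic sequence with DARP and EGFP. One group of 6 libraries received a pool of siRNAs against SUPT4H1, which encodes a subunit of the transcription elongation factor DSIF, and the other 6 received scrambled siRNA, both at 100 nM and both harvested at 72 hours. The transfections were independent and ran side by side from 1 starting culture, so that p-values measure the spread between transfections of that culture. ERCC RNA standards had been added to the lysates, mix 1 with scrambled siRNA and mix 2 with SUPT4H1 siRNA, so that the mix and the treatment cannot be told apart for standards that differ between the mixes.

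SUPT4H1 itself lay between 175 and 198 CPM (counts per 1000000 endogenous counts after TMM scaling of the libraries) with scrambled siRNA and between 17.7 and 23.2 CPM with its siRNA. Its relative abundance thus fell by 3.14 on the log2 scale (SE 0.08), with an adjusted p of 3.62e-17 by edgeR. Endogenous counts per library ran from 7337033 to 20269171 with scrambled siRNA and from 6591194 to 11366971 with SUPT4H1 siRNA. Of the markers of HEK293, NEFL fell (−0.61, edgeR adjusted p = 1.59e-05), from between 1187 and 1712 CPM to between 864 and 1006 CPM with no overlap, while PAX2, NEFM and INA were low. The 12 markers of leukocytes, endothelium, fibroblasts, hepatocytes and keratinocytes summed to between 6.89 and 11.7 CPM with scrambled siRNA and to between 6.21 and 10.6 CPM with SUPT4H1 siRNA. PTPRC, CDH5 and KRT5 had no count, and of 2 such markers that passed the filter, COL3A1 rose (0.85). SUPT4H1 siRNA replicate 6 stood apart from the other 5 libraries of its group, at 38.4 on the second principal component (16.8% of the variance) against −19.5 to −3.92. In bulk RNA, fewer cells in mitosis and less message per cell cannot be told apart.

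Promoters are shown first because they hold short motifs that many, though not all, of these genes share. RefSeq promoter windows from 250 bases before to 50 bases after the start (GRCh38.p14) were matched for 39 of the 49 genes. The cell cycle homology region was searched as TTTGAA or TTCGAA, the CCAAT box as CCAAT, and an E2F-like site as TTCCCGC or TTGGCGC, all on both strands and with overlaps between different motifs counted. The 170 bases before the RefSeq start are given for CDK1 (chr10:60778161-60778330, plus strand), ESPL1 (chr12:53268129-53268298, plus strand) and PRC1 (chr15:90994536-90994705, minus strand), which fell in relative abundance, and for PLK1 (chr16:23678719-23678888, plus strand), which moved the other way. CKS1B (chr1:154974511-154974680, plus strand) and CKS2 (chr9:89311025-89311194, plus strand), a pair of paralogs with unlike changes, were added after their values were seen. Letters run 5′ to 3′ on the strand of the gene, and capitals mark every match to a searched motif.
CDK1: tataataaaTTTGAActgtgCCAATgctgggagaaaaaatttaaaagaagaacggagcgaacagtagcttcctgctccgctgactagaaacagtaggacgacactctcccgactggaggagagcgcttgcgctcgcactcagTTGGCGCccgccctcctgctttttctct
ESPL1: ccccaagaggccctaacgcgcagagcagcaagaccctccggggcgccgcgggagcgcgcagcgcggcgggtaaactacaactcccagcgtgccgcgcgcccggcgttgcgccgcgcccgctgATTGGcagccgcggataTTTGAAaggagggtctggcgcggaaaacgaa
PRC1: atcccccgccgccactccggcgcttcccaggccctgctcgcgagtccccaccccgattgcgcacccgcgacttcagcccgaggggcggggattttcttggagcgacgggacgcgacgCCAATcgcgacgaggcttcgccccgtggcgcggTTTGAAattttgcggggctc
PLK1: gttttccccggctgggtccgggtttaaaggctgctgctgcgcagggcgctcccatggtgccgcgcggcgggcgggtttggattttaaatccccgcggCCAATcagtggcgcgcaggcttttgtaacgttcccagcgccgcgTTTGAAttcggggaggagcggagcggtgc
CKS1B: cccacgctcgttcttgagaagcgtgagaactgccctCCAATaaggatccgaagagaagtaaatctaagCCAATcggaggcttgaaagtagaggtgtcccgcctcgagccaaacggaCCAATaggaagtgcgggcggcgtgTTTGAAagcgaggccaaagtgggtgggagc
CKS2: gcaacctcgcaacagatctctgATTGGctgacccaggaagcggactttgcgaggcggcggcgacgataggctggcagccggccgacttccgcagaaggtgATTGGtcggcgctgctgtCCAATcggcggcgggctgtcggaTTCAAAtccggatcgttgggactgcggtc
All 6 windows hold 1 homology region match and at least 1 CCAAT match. The homology region match begins 29 bases before the start in PLK1, 29 in CKS2, 30 in CKS1B, 31 in ESPL1 and 20 in PRC1, whereas in CDK1 it lies 161 bases before the RefSeq start.

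A homology region match was present in 29 of the 39 windows (74.4%, exact Clopper-Pearson 95% interval 57.9 to 87.0%), compared with 10.9% of the 10359 windows of tested genes and 16.6% of all 27305 windows in the RefSeq table. At least 1 CCAAT match was found in 30 of 39 windows (76.9%), against 37.1% of those of tested genes, and 2 or more in 21 (53.8%, against 14.1%). Both motifs together occurred in 24 windows (61.5%, against 4.62%). The E2F-like words occurred in 11 (28.2%, against 15.1%). Within the 39 genes, 17 of the 29 with a homology region match fell in relative abundance (58.6%, median log2 fold change −0.30), and 6 of the 10 without one did (60.0%, median −0.36). Among tested genes the shares that fell were 23.0% with a match and 19.5% without. These matches are a description of letters in the windows, and no binding was measured.

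In relative abundance, that is, with libraries scaled to each other by their endogenous counts, most mitotic genes were lower after SUPT4H1 siRNA. By edgeR's quasi-likelihood test with a Benjamini-Hochberg adjusted p under 0.05, 30 of the 49 fell, where 19.8% of all tested genes fell, and 1 rose, where 20.3% of all tested genes rose. In either direction 31 of the 49 changed, where 40.1% of all tested genes did. The median log2 fold change was −0.32 for the 49 and 0.00 for all tested genes, and 43 of the 49 lay below 0. The values ran from −0.96 for PBK to 0.26 for CENPE. In 23 genes all 6 SUPT4H1 siRNA libraries lay below all 6 scrambled siRNA libraries, a pattern found in 9.91% of tested genes, and in 0 of the 49 were the groups apart in the other direction (10.3% of tested genes). Together the 49 genes took up 0.606% ± 0.0338 (SD, n = 6) of endogenous counts with scrambled siRNA and 0.473% ± 0.0337 (SD, n = 6) with SUPT4H1 siRNA. The lowest scrambled library stood at 0.554% and the highest SUPT4H1 library, replicate 6, at 0.537%, so the groups did not overlap.

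**Figure D1:**
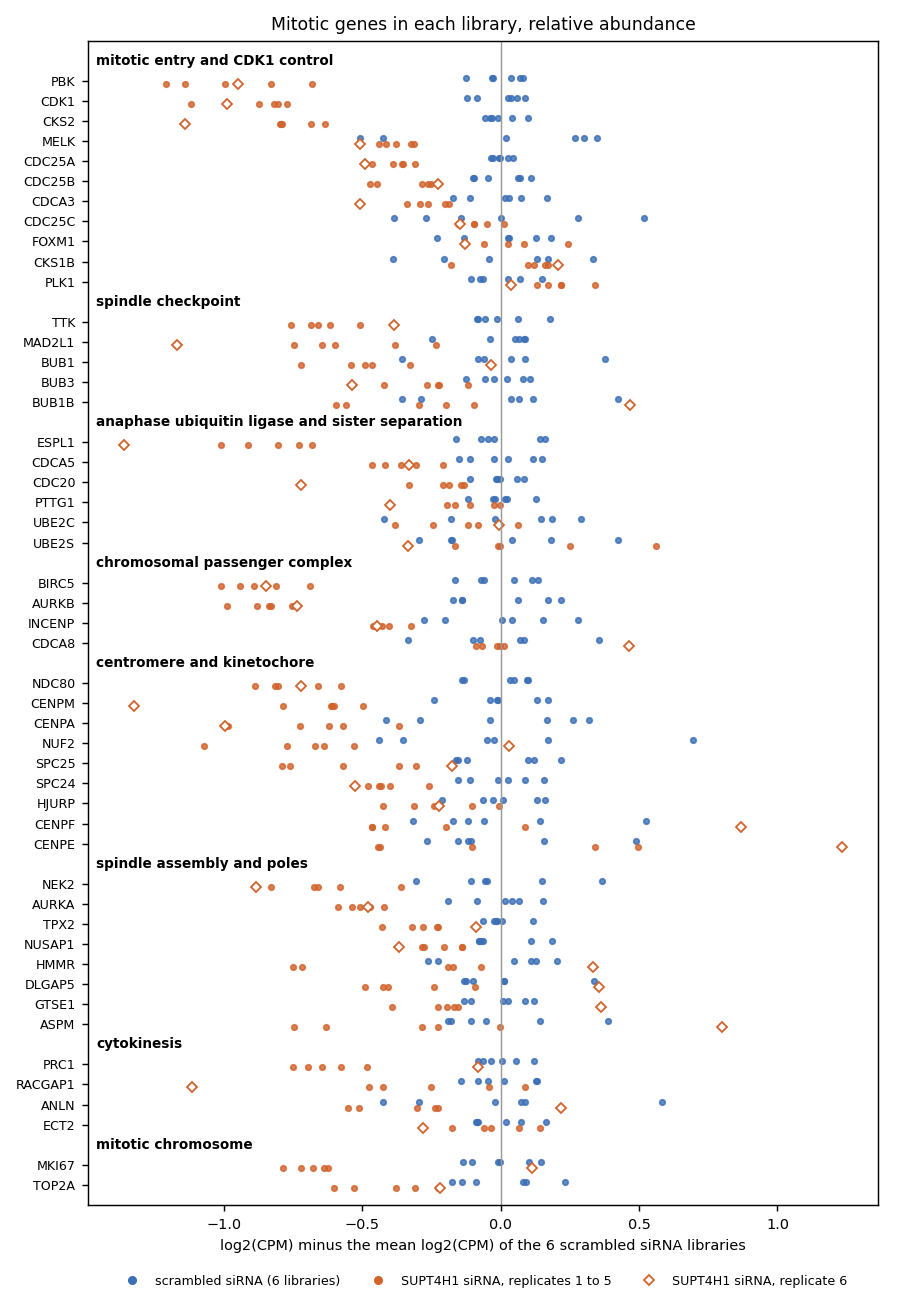
Relative abundance of the 49 mitotic genes in each of the 12 libraries, as log2 CPM minus the mean log2 CPM of the scrambled siRNA libraries (horizontal), with genes grouped by role (vertical). Blue points are scrambled libraries, filled orange points SUPT4H1 siRNA replicates 1 to 5, and open diamonds replicate 6. The median of the 49 genes lay between −0.13 and 0.09 in the scrambled libraries and between −0.44 and −0.31 in the SUPT4H1 siRNA libraries.

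In each single SUPT4H1 siRNA library, between 32 and 37 of the 49 genes lay below the lowest scrambled value. Between 1 and 2 genes lay above the highest scrambled value in replicates 1 to 5, but 8 did in replicate 6. Such counts were not made over all tested genes, so whether the 49 differ from them in single libraries was not tested.

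By role, the genes that fell ran from 1 of 4 in cytokinesis to 2 of 2 in the mitotic chromosome, where 19.8% of all tested genes fell. Among the 11 genes of mitotic entry, 7 fell (63.6%) and 1 rose. CDK1, the kinase that drives entry (chromosome 10, 60778331 to 60794852, plus strand, GENCODE release 29), had a lowest, median and highest value of 277, 309 and 321 CPM with scrambled siRNA and of 139, 168 and 177 CPM with SUPT4H1 siRNA. The groups were far apart, with a shift of −0.89 on the log2 scale (SE 0.07, edgeR adjusted p = 1.25e-08), which leaves 53.8% of the scrambled level. PBK, a mitotic kinase (chromosome 8, 27809620 to 27838095, minus strand), went from 74.9, 82.0 and 86.4 CPM to 35.4, 41.6 and 51.0 CPM, the largest fall of the 49 (−0.96, SE 0.09, edgeR adjusted p = 4.20e-08). Its groups did not overlap either. PBK overlaps ESCO2 on the opposite strand, and the strand setting of the counting is not given in the sources used here.

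The other genes of this role that fell were CKS2 (log2 fold change −0.80), a small subunit of CDK complexes, the kinase gene MELK (−0.44), the CDC25 phosphatase genes CDC25A (−0.39) and CDC25B (−0.32), and CDCA3 (−0.30), a substrate of the anaphase-promoting complex that targets the CDK1 inhibitor WEE1. CDC25C (−0.13), CKS1B (0.08) and the transcription factor gene FOXM1 (0.00) did not pass the test.

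PLK1, the Polo-like kinase of centrosome maturation and mitotic exit (chromosome 16, 23677656 to 23690367, plus strand), was the 1 gene of the 49 that rose in relative abundance, while its value scaled to the added RNA standards was −0.63. Its lowest, median and highest values were 76.0, 80.9 and 90.7 CPM with scrambled siRNA and 84.0, 93.7 and 104 CPM with SUPT4H1 siRNA. The groups overlapped, and the log2 fold change was 0.19 (SE 0.07, 95% interval 0.03 to 0.34, edgeR adjusted p = 0.0488). The call was lost in 14 of 21 alternative settings (adjusted p of up to 0.14), among them the omission of any 1 library other than scrambled siRNA replicate 2 or SUPT4H1 siRNA replicate 6. The value stayed between 0.15 and 0.22 in all 21. PLK1 overlaps ERN2 on the opposite strand.

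CKS1B and CKS2 encode the closely related CKS proteins that help CDK complexes bind phosphorylated substrates. CKS2 went from 110, 113 and 122 CPM to 51.8, 66.0 and 73.5 CPM (lowest, median and highest), with all SUPT4H1 libraries below all scrambled ones. CKS1B stood at 218, 295 and 360 CPM with scrambled siRNA and at 252, 315 and 330 CPM with SUPT4H1 siRNA, so its groups overlapped. The log2 ratio of CKS1B to CKS2 counts, which does not depend on how libraries are scaled, was 1.32 ± 0.229 (SD, n = 6) with scrambled siRNA and 2.23 ± 0.248 (SD, n = 6) with SUPT4H1 siRNA. The groups did not overlap in this ratio (exact two-sided permutation test, p = 0.00216, the smallest this design allows, and adjusted p = 0.0114 over 21 pairs of genes compared). The 21 pairs, here and below, were chosen with earlier results of these data known, a choice that the adjustment does not cover. Both promoters hold the homology region match at nearly the same distance from the start, but in opposite orientation, as printed above.

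In the spindle checkpoint, 4 of 5 genes (80.0%) fell. TTK, the kinase MPS1 that starts checkpoint signalling at unattached kinetochores (chromosome 6, 80003887 to 80042527, plus strand), went from 67.4, 69.8 and 80.9 CPM to 42.3, 45.9 and 54.8 CPM (lowest, median and highest). Its groups did not overlap, and the log2 fold change was −0.60 (SE 0.08, edgeR adjusted p = 5.86e-06). MAD2L1, which encodes the MAD2 protein that binds and holds CDC20, also fell (−0.60), as did the checkpoint kinase gene BUB1 (−0.44) and BUB3 (−0.29), whose product brings the BUB proteins to the kinetochore. BUB1B, which encodes BUBR1 of the mitotic checkpoint complex, did not pass (−0.21). Without SUPT4H1 siRNA replicate 6 it did (−0.39).

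Of the 6 genes of the anaphase ubiquitin ligase and of sister separation, 3 fell (50.0%). ESPL1, which encodes separase, the protease that cuts cohesin (chromosome 12, 53268299 to 53293643, plus strand), had 41.1, 44.9 and 51.3 CPM with scrambled siRNA and 17.9, 25.3 and 28.7 CPM with SUPT4H1 siRNA (lowest, median and highest). The groups lay well apart, with a shift of −0.90 on the log2 scale (SE 0.10, edgeR adjusted p = 9.53e-07). CDCA5, which encodes sororin, the protector of cohesin on replicated chromatids, fell (−0.35), and so did CDC20 (−0.27), the activator that the checkpoint restrains, although not with RNA integrity as a covariate (−0.21, edgeR adjusted p = 0.0903). PTTG1 (−0.15), which encodes securin, the inhibitor of separase, did not pass the test. The ubiquitin-conjugating enzyme genes of the complex, UBE2C (−0.14) and UBE2S (0.09), did not pass it either. Pseudogenes of UBE2S with rows of their own held counts equal to 4.11% of those of UBE2S.

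The anaphase-promoting complex itself was read as a separate list of its subunits, the coactivator FZR1 and the inhibitor FBXO5 (EMI1). Of 16 genes, 14 were tested, 3 fell (21.4%, against 19.8% of all tested genes) and 0 rose, and the median log2 fold change was 0.02. The 3 were ANAPC16 (−0.49), ANAPC11 (−0.49) and ANAPC10 (−0.40).

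The chromosomal passenger complex, which corrects faulty kinetochore attachments and later directs cytokinesis, consists of the kinase AURKB, the scaffold INCENP, and survivin (BIRC5) and borealin (CDCA8), which bring it to the centromere. BIRC5 (chromosome 17, 78214186 to 78225636, plus strand) went from 340, 380 and 419 CPM to 189, 209 and 237 CPM (lowest, median and highest), a shift of −0.87 on the log2 scale (SE 0.08, edgeR adjusted p = 2.49e-08). AURKB went from 323, 355 and 423 CPM to 183, 204 and 219 CPM (−0.84), and INCENP from 32.2, 39.5 and 47.3 CPM to 28.3, 28.8 and 31.1 CPM (−0.43). These 3 of the 4 genes fell, and in each the groups did not overlap. CDCA8 stood at 51.5, 65.0 and 83.2 CPM with scrambled siRNA and at 61.0, 64.6 and 89.6 CPM with SUPT4H1 siRNA. Its groups overlapped, and its log2 fold change was 0.04 (95% interval −0.18 to 0.27). It was −0.078 without SUPT4H1 siRNA replicate 6, which held its highest value, and −0.019 without scrambled siRNA replicate 6.

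The subunits thus changed unequally. The log2 ratio of BIRC5 to CDCA8 was 0.92 lower with SUPT4H1 siRNA, at 1.64 ± 0.231 against 2.55 ± 0.257 (SD, n = 6 each), and that of AURKB to CDCA8 was 0.89 lower, at 1.60 ± 0.174 against 2.49 ± 0.180 (SD, n = 6 each). Neither ratio overlapped between groups (exact two-sided permutation test, p = 0.00216 and adjusted p = 0.0114 for each, over the 21 pairs). BIRC5 to INCENP was lower by 0.45 (exact permutation p = 0.00649, adjusted p = 0.0227). That call was lost when SUPT4H1 siRNA replicate 1, 2, 4, 5 or 6 was left out (−0.43 to −0.46, exact permutation, adjusted p of up to 0.0606). AURKB to BIRC5 differed by 0.03 (exact permutation p = 0.675, adjusted p = 0.709), and INCENP to CDCA8 by −0.47 (exact permutation p = 0.0411, adjusted p = 0.096), which did not pass with all libraries but did without scrambled siRNA replicate 2 (−0.58). The kinase paralogs AURKA and AURKB also changed unequally, because both fell and AURKB fell by more. The mean log2 ratio of AURKA to AURKB rose by 0.34, from −1.87 to −1.53, so their levels came closer together. The groups did not overlap in this ratio (exact permutation p = 0.00216, adjusted p = 0.0114).

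**Figure D2:**
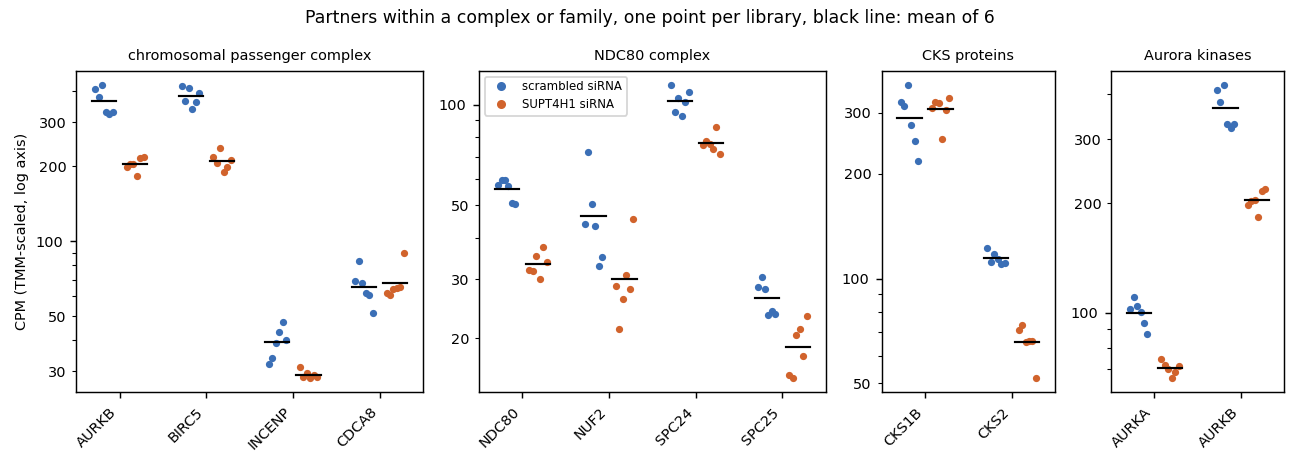
CPM on a log axis of the members of 4 complexes or families, with 1 point per library (blue scrambled siRNA, orange SUPT4H1 siRNA, spread sideways only so that points can be seen) and a black line at the mean of 6. CDCA8 stands at a median of 65.0 CPM with scrambled siRNA and 64.6 CPM with SUPT4H1 siRNA, while AURKB goes from 355 to 204 CPM and BIRC5 from 380.4 to 209 CPM.

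At the centromere and kinetochore, 6 of 9 genes (66.7%) fell. NDC80, the microtubule-binding subunit that gives the NDC80 complex its name (chromosome 18, 2571511 to 2616635, plus strand), went from 50.5, 57.3 and 59.7 CPM to 30.1, 32.8 and 37.4 CPM (lowest, median and highest). Its groups did not overlap, and the log2 fold change was −0.74 (SE 0.08, edgeR adjusted p = 5.02e-07). The other subunits of the complex fell as well, NUF2 by 0.63, SPC25 by 0.50 and SPC24 by 0.43 on the log2 scale. Of the 6 ratios among the 4 subunits, NDC80 to SPC24 differed between groups (−0.32, exact permutation p = 0.00649, adjusted p = 0.0227), and 5 did not pass (adjusted p of 0.136 or more). That call was lost without SUPT4H1 siRNA replicate 1, 2 or 4 (−0.30 to −0.31, exact permutation, adjusted p of up to 0.0545). The fall of NUF2 missed the threshold without SUPT4H1 siRNA replicate 3 (−0.60, edgeR adjusted p = 0.0502) and without a filter on low counts (−0.63, edgeR adjusted p = 0.0829).

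CENPM (−0.72), a subunit of the inner kinetochore, and CENPA (−0.71), the histone that marks the centromere, fell, while the CENPA chaperone gene HJURP did not pass (−0.22, edgeR adjusted p = 0.085). The ratio of CENPA to HJURP differed by −0.49 (exact permutation p = 0.0195, adjusted p = 0.0584), and passed without scrambled siRNA replicate 5 or 6 (−0.58). CENPE, a kinesin that carries chromosomes to the spindle equator, had 22.5, 25.0 and 37.9 CPM with scrambled siRNA and 19.9, 29.7 and 63.6 CPM with SUPT4H1 siRNA. Its log2 fold change of 0.26 had a 95% interval of −0.33 to 0.86 and was −0.05 without SUPT4H1 siRNA replicate 6. CENPF, a large coiled-coil protein of the outer kinetochore, had 135, 158 and 242 CPM with scrambled siRNA and 122, 136 and 306 CPM with SUPT4H1 siRNA. Its value of −0.04 (95% interval −0.58 to 0.49) was −0.33 without replicate 6. The groups overlapped in both genes.

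Other kinetochore and checkpoint partners, a list of 18 genes, held 8 that fell (44.4%, against 19.8% of all tested genes) and 1 that rose (5.56%, against 20.3%), with a median of −0.22. NSL1 (−0.87), a subunit of the MIS12 complex, and SKA2 (−0.54), of the SKA complex, fell, and ZW10 (0.77), a checkpoint protein that recruits dynein, rose. Of 19 further inner centromere genes, 5 fell, among them CENPN (−0.79) and CENPX (−0.67), and CENPW (0.34) and OIP5 (0.30), a CENPA loading factor, rose. The shares were 26.3% fallen and 10.5% risen, against 19.8% and 20.3% of all tested genes, and the median was −0.02.

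Of the 8 genes of spindle assembly and poles, 4 fell (50.0%). AURKA, the Aurora kinase of the spindle poles (chromosome 20, 56369389 to 56392337, minus strand), went from 87.4, 102 and 111 CPM to 66.2, 70.7 and 74.3 CPM (lowest, median and highest), a shift of −0.50 on the log2 scale (SE 0.07, edgeR adjusted p = 1.47e-05). NEK2, a kinase of centrosome separation (chromosome 1, 211658657 to 211675630, minus strand), went from 25.2, 30.03 and 40.2 CPM to 16.9, 19.6 and 24.3 CPM (−0.67, SE 0.12, edgeR adjusted p = 1.14e-04). In neither gene did the groups overlap, although the highest SUPT4H1 value of NEK2 lay close to the lowest scrambled value. TPX2 (−0.26), the activator of AURKA on the spindle, and NUSAP1 (−0.24), which bundles microtubules, also fell. HMMR (−0.23), DLGAP5 (−0.21), ASPM (−0.11) and GTSE1 (−0.11), which encode spindle proteins, did not pass with all 12 libraries. All 4 passed without SUPT4H1 siRNA replicate 6, at −0.39, −0.37, −0.40 and −0.25.

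Among 12 genes of the centrosome, read as a separate list with a median of −0.16, 1 fell (8.33%, against 19.8% of all tested genes): PLK4 (−0.89), the kinase that starts centriole duplication.

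In cytokinesis, 1 of 4 genes fell (25.0%, close to the 19.8% of all tested genes). PRC1, which bundles the microtubules of the central spindle (chromosome 15, 90966038 to 90995629, minus strand), had 266, 278 and 306 CPM with scrambled siRNA and 167, 184 and 266 CPM with SUPT4H1 siRNA (lowest, median and highest). The groups touched without overlapping, because replicate 6 held the highest SUPT4H1 value. The log2 fold change was −0.52 (SE 0.10, edgeR adjusted p = 1.79e-04), and −0.66 without that library. RACGAP1 (−0.32), of the centralspindlin complex, ANLN (−0.29), which encodes the scaffold protein anillin, and ECT2 (−0.05), an exchange factor for RhoA, did not pass. Without replicate 6, ANLN passed at −0.43. RACGAP1 passed without SUPT4H1 siRNA replicate 1 (−0.38) or 2 (−0.42) and without a filter on low counts (−0.32, edgeR adjusted p = 0.0326).

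Both genes of the mitotic chromosome fell. TOP2A, the topoisomerase that untangles sister chromatids (chromosome 17, 40388516 to 40417950, minus strand), went from 966, 1089 and 1281 CPM to 718, 860 and 938 CPM (lowest, median and highest). The groups did not overlap, and the log2 fold change was −0.38 (SE 0.09, edgeR adjusted p = 0.00215). MKI67, which encodes the proliferation antigen Ki-67 that coats mitotic chromosomes (chromosome 10, 128096659 to 128126385, minus strand), went from 162, 177 and 197 CPM to 103, 113 and 192 CPM (−0.53, SE 0.12, edgeR adjusted p = 0.00255). Here 5 of the 6 SUPT4H1 libraries lay below every scrambled library, and replicate 6 lay among them. Without it the log2 fold change was −0.72.

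The lists of other complexes compare with 19.8% of all tested genes fallen and 20.3% risen. Of 8 condensin genes, with a median of −0.22, 3 fell (37.5%: NCAPH by 0.47, NCAPG by 0.35 and SMC4 by 0.34 on the log2 scale) and NCAPH2 (0.20) rose. Of 12 cohesin genes, with a median of 0.02, 3 fell (25.0%: RAD21 at −0.44, STAG1 at −0.33 and SMC1A at −0.29). Of 8 genes of CDK1 inhibition and of the phosphatase switch that opposes CDK1, with a median of −0.00, 3 fell (37.5%) and 1 rose (12.5%). PKMYT1 (−0.37), a kinase that inhibits CDK1, and ARPP19 (−0.30) and PPP2R2D (−0.28), a regulatory subunit of the phosphatase PP2A, fell, and ENSA (0.30) rose. ARPP19 and ENSA encode related inhibitors of PP2A. Of the genes of the DREAM and MYBL2 complexes, which bind the promoters of cell cycle genes, 11 of 12 were tested, with a median of −0.02, and 3 fell (27.3%) and 2 rose (18.2%). TFDP1 (−0.31), LIN9 (−0.46) and RBBP4 (−0.23) fell, and E2F4 (0.25) and MYBL2 (0.36) rose. The rises of NCAPH2, E2F4 and MYBL2 lay near the threshold (edgeR adjusted p = 0.038, 0.040 and 0.048). How they depend on the processing was not examined. NCAPH2, PPP2R2D, E2F4, MYBL2 and OIP5 were named after their values were seen. Across these 8 lists 102 of 105 genes were tested, 29 fell (28.4%), 7 rose (6.86%) and the median was −0.08. Scaled to the added standards, 81 of the 102 fell (79.4%, against 59% of all tested genes) and 0 rose, so that each rise named from these lists is a rise in relative abundance.

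SUPT4H1 siRNA replicate 6 held several of the values that set the spread. Against the mean of the other 5 libraries of its group, it was higher on the log2 scale by 1.26 for CENPE, 1.18 for ASPM, 1.16 for CENPF, 0.82 for BUB1B, 0.80 for MKI67 and 0.77 for NUF2. It was lower for RACGAP1 (−0.90), CENPM (−0.70), MAD2L1 (−0.65), ESPL1 (−0.53) and CDC20 (−0.52). Over the 49 genes its deviation had a Pearson r of 0.43 with the log10 length of the longest annotated transcript and a Spearman rho of 0.29, a description across genes of 1 library. Of the 8 genes with a transcript over 5000 bases, 5 were above the mean of the other 5 libraries in replicate 6, and the rest were not. The same share among the shorter genes was not counted, so this count does not bear on length, and an effect of length was not tested. The RNA integrity number of this library was 9.8, in a range of 9.6 to 10.0 over all 12. Only SUPT4H1 siRNA replicate 5, at 9.6, was lower. Its endogenous counts, at 6591194, were the fewest of all 12, and SUPT4H1 siRNA replicate 4 came next with 7260981.

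Without replicate 6, 36 of the 49 genes fell, against 22.6% of the 14043 genes then tested. All 30 that fell with 12 libraries were among them, and the 6 added were ANLN, ASPM, BUB1B, DLGAP5, GTSE1 and HMMR. The median of the 49 moved from −0.32 to −0.40.

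**Figure D3:**
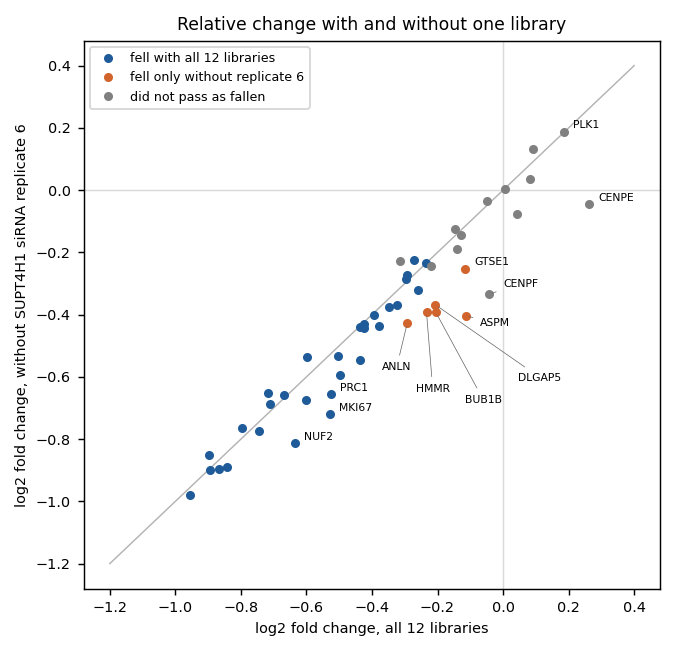
Log2 fold change in relative abundance of each of the 49 genes with all 12 libraries (horizontal) and without SUPT4H1 siRNA replicate 6 (vertical), with the line of equal values. CENPE (0.26 and −0.05), CENPF (−0.04 and −0.33) and ASPM (−0.11 and −0.40) lie farthest below the line.

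Relative abundance does not show how much message there was per added standard. Endogenous counts per count of the ERCC standards at equal concentration in both mixes were lower with SUPT4H1 siRNA by 0.93 on the log2 scale, 52.6% of the scrambled level (exact two-sided permutation test, p = 0.013). With the standards of subgroup C the difference was −0.64 and did not pass (exact permutation p = 0.052). Scaled to the standards at equal concentration in both mixes, 47 of the 49 genes fell and 0 rose, where 59% of tested genes fell and 0.304% rose. All genes of a library are scaled by the same count of standards, so these calls are not independent of each other. The median log2 fold change was −1.15 for the 49 and −0.82 for all tested genes. PLK1 (−0.63, edgeR adjusted p = 0.073) and CENPE (−0.50, edgeR adjusted p = 0.16) did not pass with all libraries, but both did without SUPT4H1 siRNA replicate 5 (−0.92 and −0.78). CDK1, at −1.69, kept 31.0% of its scrambled level per added standard, BIRC5 stood at −1.69 and PBK at −1.82. These values are per standard added to a lysate and not per cell.

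**Figure D4:**
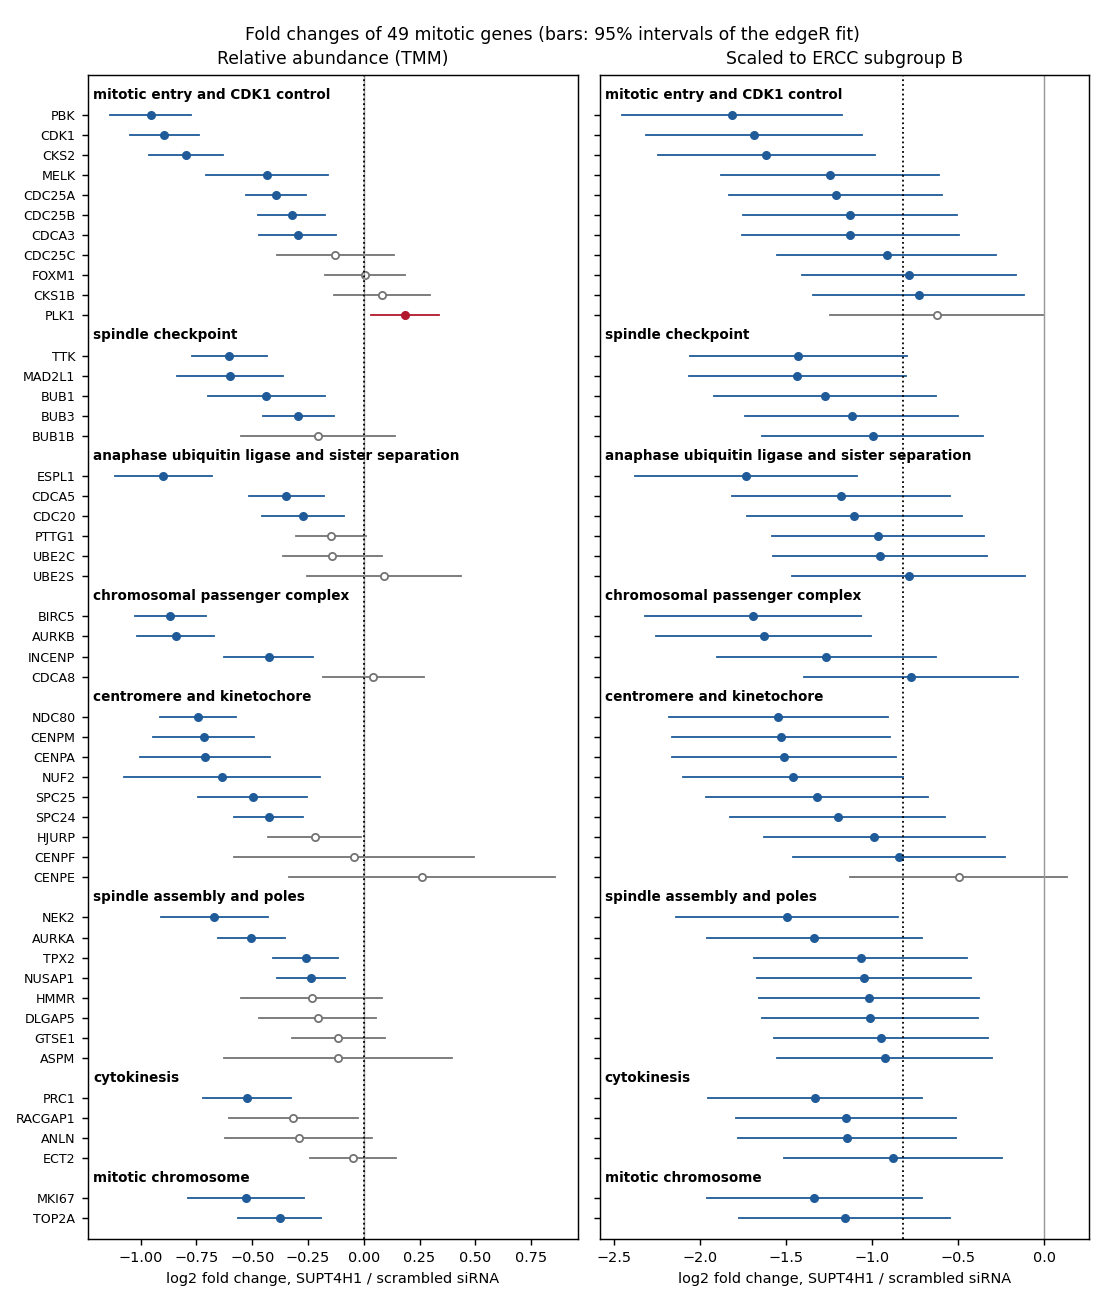
Log2 fold change of each of the 49 genes with its 95% interval from the edgeR fit, in relative abundance (left) and scaled to the standards (right), with filled points for genes that passed the test and a dotted line at the median of all tested genes. On the left PBK (−0.96), ESPL1 (−0.90), CDK1 (−0.89), BIRC5 (−0.87) and AURKB (−0.84) lie lowest, and on the right all 49 estimates lie below 0.

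**Figure D5:**
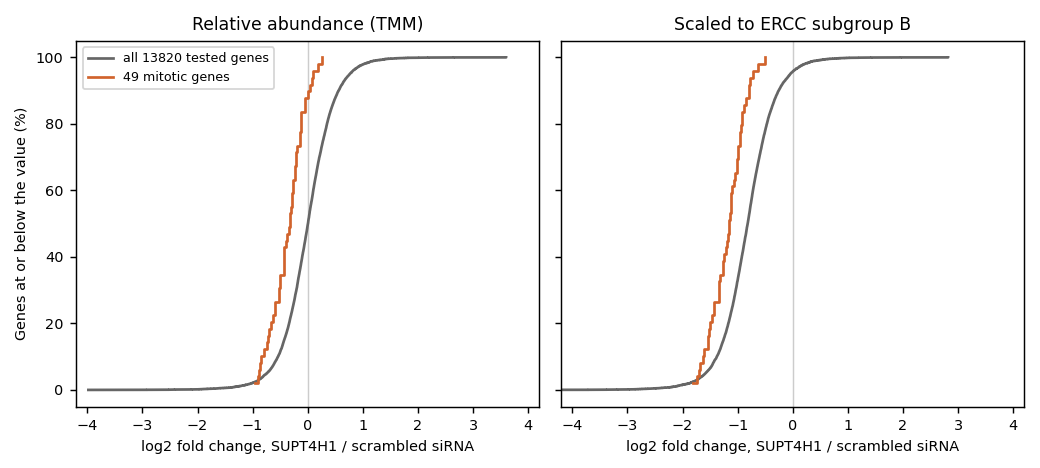
Cumulative percent of genes at or below each log2 fold change, for the 49 mitotic genes (orange) and all 13820 tested genes (grey), in relative abundance (left) and scaled to the standards (right). The medians are −0.32 and 0.00 on the left and −1.15 and −0.82 on the right.

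The libraries spread more widely on this scale. The groups were apart on this scale in 14 of the 49 genes, and in 8.52% of tested genes. The median deviation of the 49 genes from the scrambled mean ran from −1.998 to −0.20 among the SUPT4H1 libraries, with replicate 5 the highest, and from −0.33 to 0.60 among the scrambled ones, so the groups overlapped. With the standards of subgroup C, whose nominal ratio between mixes is not 1, 22 of the 49 fell (median −0.84), where 16.1% of all tested genes fell.

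After the group means were removed, the median Pearson correlation over the 1176 pairs of genes was 0.11 over the 12 libraries, and 0.01 over all pairs of tested genes, which share library, depth and scaling. It was 0.14 without replicate 6.

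By the annotation, 19 of the 49 genes overlap a gene on the opposite strand, among them UBE2S with RPL28, FOXM1 with RHNO1 and NUF2 with RGS5. For these genes reads of both partners could have been counted together if the counting was not stranded. BUB1B shares a strand with the read-through gene BUB1B-PAK6, and CENPA with SLC35F6. Rows for pseudogenes exist for 10 of the 49.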

How the data were processed

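The authors deposited 1 table of raw counts per gene (57704 genes and 92 ERCC standards) for 12 QuantSeq libraries. The submitters' processing notes list STAR (version not given), FastQC 0.11.5, MultiQC, R 3.4.3 and, as build, GRCh38.p10. Which program counted the reads, and whether it used strand, is not given in the sources used here. Values of overlapping genes are therefore uncertain. Gene positions came from GENCODE release 29 (GRCh38).

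Counts were tested with edgeR 4.0.16 in R 4.3.3 (robust quasi-likelihood test, SUPT4H1 siRNA against scrambled siRNA, no covariates, filterByExpr) over all 13820 genes that passed the filter, with Benjamini-Hochberg adjustment and a threshold of 0.05. Relative abundance used TMM factors over endogenous genes. CPM are TMM-scaled. Spike-in-scaled abundance used the summed counts of 23 ERCC standards of subgroup B, assigned from general knowledge of the product, and all spike-in values rest on that assignment. Ratios of pairs of genes were compared by exact two-sided permutation tests. Pearson correlations used log2 values with a pseudocount of 0.5. The edgeR fit was tested on simulated data, with TMM and with spike-in scaling. No 2 libraries of a group agreed within sampling noise.

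The members, roles, lists and gene pairs were chosen with earlier results of these data known. Genes given in full are, for each role, the called gene with the smallest adjusted p and the one with the largest change, and any gene called in the opposite direction. Lowest, median and highest values are also given for CKS1B, CKS2, AURKB, INCENP, CDCA8, CENPE and CENPF, which this rule does not select. Of each related list, up to 3 called genes are named by adjusted p, with other members given where a direction would otherwise be missing. Alternatives were DESeq2 1.42.0, limma-voom with limma 3.58.1, other scalings, filters and standards, a fit with RNA integrity, a fit blocked on the replicate number, and leaving out each library.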

Additional observations from a re-analysis of the deposited data

Results flagged for a closer look

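Among 106 sets of 6 values (each of the 49 genes in each group and measures per library), 11 held a highest or lowest value whose gap to the nearest other library exceeded Dixon's 95% critical share of the range of its group, where chance alone gives about 5.3. In SUPT4H1 siRNA replicate 6, 7 genes stood high. These were ANLN at 47.2 CPM (nearest other library 34.7), ASPM at 104 CPM (59.9), CDCA8 at 89.6 CPM (65.6) and CENPF at 306 CPM (178). GTSE1 stood at 98.1 CPM (nearest other library 68.5), MKI67 at 192 CPM (115) and PRC1 at 266 CPM (201). In the same library CKS2 stood low, at 51.8 CPM (nearest other library 65.7). Elsewhere, CKS1B stood low in SUPT4H1 siRNA replicate 4 at 252 CPM (nearest other library 306), DLGAP5 stood high in scrambled siRNA replicate 2 at 67.1 CPM (53.5), and TPX2 stood high in scrambled siRNA replicate 3 at 167 CPM (155).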

How the results depend on the processing

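The number of the 49 genes that fell in relative abundance stayed between 29 and 36 in all alternatives run. Over all genes tested in each setting, 2314 (with RNA integrity as a covariate) to 3177 (without SUPT4H1 siRNA replicate 6) fell. From 2327 (with RNA integrity) to 3139 (with total-count scaling) of all genes rose. Of the 49, the number that rose was 0 with upper-quartile scaling, without a filter, with RNA integrity as a covariate and with the replicate block, and 0 to 1 when 1 library was left out. The median of the 49 was −0.40 to −0.31 in those leave-outs, the former without SUPT4H1 siRNA replicate 6. Values that changed sign never passed the test. CENPF was 0.0031 with total-count scaling and −0.33 to 0.059 with 1 library left out, and FOXM1 was −0.021 with upper-quartile scaling, −0.040 with RNA integrity and −0.063 to 0.043 in the leave-outs. In the leave-outs, CDCA8 was −0.078 to 0.10, UBE2S −0.035 to 0.16, CENPE −0.046 to 0.38, the ratio of BUB1B to BUB3 −0.098 (without SUPT4H1 siRNA replicate 6) to 0.20 and that of AURKB to BIRC5 −0.0081 to 0.063. Scaled to subgroup C of the standards, 2227 of all tested genes fell, 68 rose and 22 of the 49 fell, and the endogenous ratio was −0.64 (exact permutation p = 0.052). With 1 library left out, 5643 (without scrambled siRNA replicate 4) to 12306 (without SUPT4H1 siRNA replicate 5) of all tested genes fell on the spike-in scale, 28 to 60 rose, 42 to 49 of the 49 fell, and the endogenous ratio was −1.13 to −0.81. Replicate numbers did not pair the libraries (correlations of deviations between −0.32 and 0.06). With the replicate block 2371 genes fell and 2437 rose in relative abundance, 30 of the 49 fell, NUF2 lost its call and RACGAP1 gained one (−0.36, edgeR adjusted p = 0.0466). On the spike-in scale 9339 genes and all 49 of the 49 fell with it, PLK1 (edgeR adjusted p = 0.0344) and CENPE (0.0416) included, and the endogenous ratio was −0.93 (exact permutation p = 0.063). Depth limits the precision most for genes with the fewest counts.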
